A study of Mus musculus with 8 samples.

Results

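The genes of glycolysis and glycogen metabolism described here are 37 genes listed by symbol: 4 transporters of glucose and lactate, 7 enzymes of the hexose phosphate stage of glycolysis, 10 of the triose phosphate stage, 4 of lactate dehydrogenase and the glycerol phosphate shuttle, 8 genes of glycogen synthesis and 4 of glycogen breakdown. They were found through the RefSeq accession of each probe, and all 37 were among the 20660 genes named on the array. Transcript levels had been measured in gastrocnemius and tibialis anterior (TA) of mice heterozygous for Eif6, which encodes a factor of ribosome maturation and translation initiation, in a study of what this gene does in muscle. Eif6+/- mice were compared with their wild-type (WT) male littermates on the C57BL6 background, all 8 to 16 weeks old, with no treatment in either group. Each of 8 arrays, 4 for each muscle, held the RNA of 1 Eif6+/- mouse labelled with Cy5 and of 1 WT mouse of matching age labelled with Cy3, paired at random, and the pairs are numbered 1 to 4 as in the labels. The labels give neither the nature of the Eif6 allele nor whether a pair number stands for the same mice in both muscles. Every value called a ratio is the log2 ratio of Eif6+/- over WT on 1 array, so that a positive value means a higher signal in the Eif6+/- mouse. Both dyes kept their genotype on every array, so dye and genotype cannot be told apart. The 4 gastrocnemius arrays shared 1 side of the slide and the 4 TA arrays the other, so any difference between muscles may also be one of position on the slide.

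As background, glycolysis splits glucose into pyruvate in the cytosol, and fast muscle fibres lean on it for rapid ATP, passing pyruvate on to lactate when oxygen or mitochondria do not keep pace. Glycogen is the muscle's own glucose store: glycogenin primes it, glycogen synthase and the branching enzyme extend it, and glycogen phosphorylase releases glucose 1-phosphate during contraction. Phosphorylation and allosteric control of phosphofructokinase, glycogen synthase and phosphorylase also set the flux, which was not measured here.

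Eif6 itself fell in both muscles. Its ratio was -0.97, -1.15, -0.89 and -1.06 on gastrocnemius arrays 1 to 4 and -1.22, -1.03, -0.95 and -0.80 on the TA arrays. The means were -1.02 in gastrocnemius (fold 0.494, SD 0.112, SE 0.0762, n = 4, adjusted p = 0.0241, limma) and -0.999 in TA (SD 0.174, SE 0.0829, n = 4, adjusted p = 0.0109, limma). The WT mouse had the higher signal on all 8 arrays, and a second Eif6 probe gave -1.13 and -1.12, so the genotype labels matched the arrays. Where the probes lie relative to the altered part of the gene was not known. Without gastrocnemius pair 3 or pair 4 even Eif6 missed the threshold (adjusted p = 0.121 and 0.156, limma). The tissue was checked as muscle with 8 markers of skeletal muscle (Ckm, Acta1, Tnnt3, Tnnc2, Myh4, Myh1, Mb and Des). All were well above background in both channels of all 8 arrays. As this held in both muscles, these markers do not tell the gastrocnemius label from the TA label.

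A gene is said to have risen or fallen where its brightest probe passed limma's test of the 4 ratios against 0 at an adjusted p under 0.1. In gastrocnemius 36 of the 37 genes were tested. There 5 rose (Hk2, Aldoa, Ldha, Gyg and Gbe1), or 13.9%, where 9.85% of the 12609 genes tested rose, and 7 fell (Pfkl, Tpi1, Gapdh, Eno1, Pkm, Ppp1r3a and Pygm), or 19.4%, where 5.53% of all genes fell. In TA 35 were tested, and 5 rose (Gpi1, Aldoa, Ldha, Gyg and Pgm1), or 14.3%, against 8.98% of 12381 genes, while 7 fell (Pfkl, Tpi1, Pgam2, Pkm, Ldhb, Gys1 and Ugp2), or 20%, against 7.29%. The median ratio of the tested members was -0.01 in gastrocnemius and 0.00 in TA, where the median of all genes tested was 0.02 in each muscle. Without regard to sign, the median size of the ratio was 0.197 in gastrocnemius and 0.179 in TA, against 0.137 and 0.122 over all genes. These shares were set side by side without a test, and no list is called particular from them. A count rests on few arrays: without gastrocnemius pair 1, 2, 3 or 4 the genes that rose numbered 7, 3, 0 and 0 and those that fell 7, 5, 0 and 0, and without TA pair 1, 2, 3 or 4 they numbered 1, 3, 6 and 6 and 0, 1, 2 and 5. Without gastrocnemius pair 3 or pair 4, limma called 0 of all 12609 genes at this threshold, while 2424 and 2649 had an unadjusted p under 0.05, so none of the gastrocnemius calls named below held without either of these pairs. Calls also depended on the processing. With a background offset of 0 and with Agilent's processed signals alike, Gpi1, Tpi1, Pgam2, Pkm, Gys1 and Ugp2 missed the threshold in TA and Eno1 and Ldha in gastrocnemius. Hk2 missed it in gastrocnemius with an offset of 0, and Gapdh and Pygm in gastrocnemius and Ldhb and Gyg in TA with processed signals. Tpi1, Pgam2 and Pkm missed it in TA without background correction and with the deposited ratios as well, as did Gapdh and Pygm in gastrocnemius with the deposited ratios. In whole muscle, fewer cells of a type and less RNA per cell cannot be told apart.

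**Figure D1:**
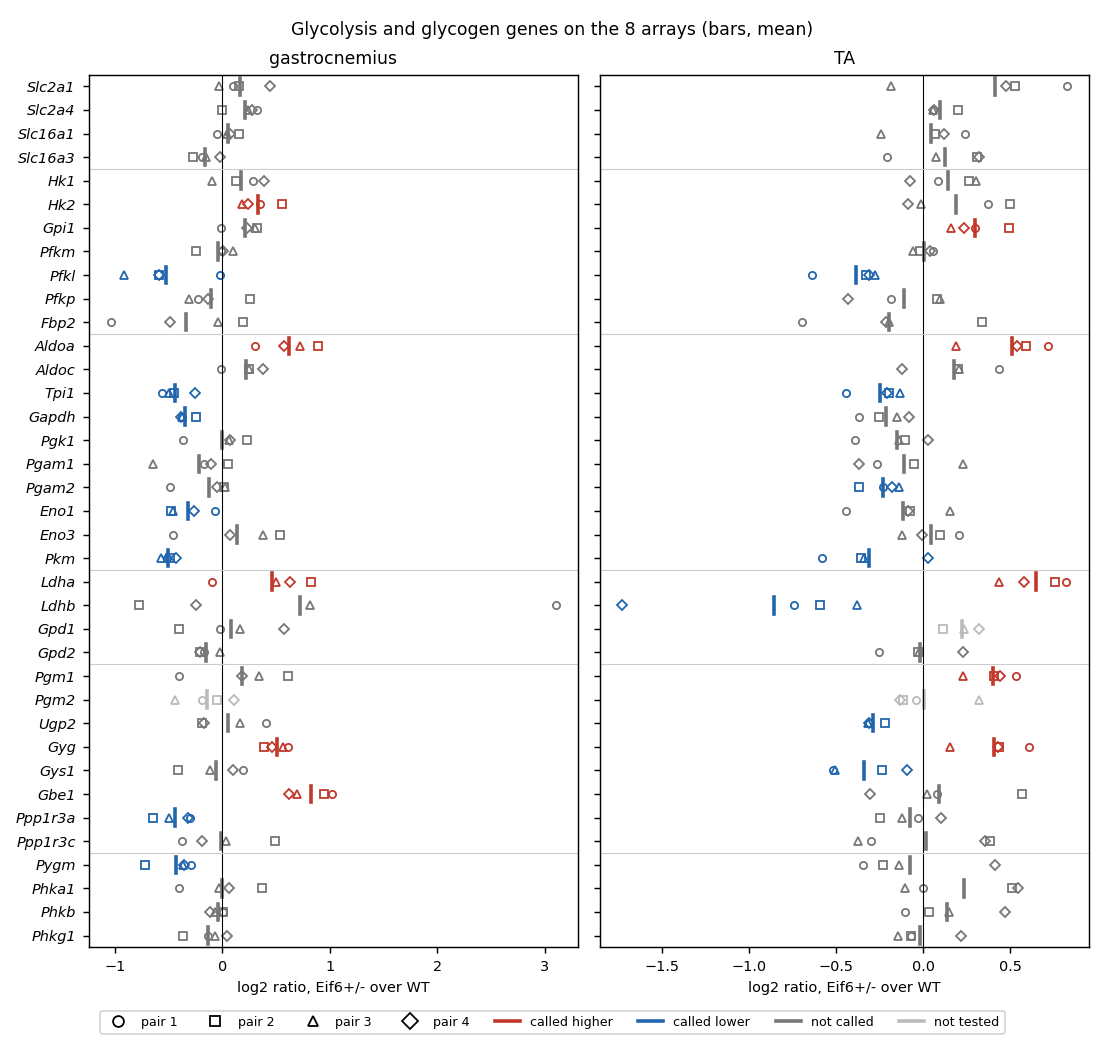
Log2 ratio of Eif6+/- over WT (x axis) of the 37 genes in the order of their roles (y axis), with 1 symbol per pair of mice and a bar at the mean; red and blue mark genes called higher and lower by limma at an adjusted p under 0.1. Aldoa, Gyg and Gbe1 lie to the right of 0 on all 4 gastrocnemius arrays and Tpi1, Gapdh, Pkm, Ppp1r3a and Pygm to the left, while Ldhb spreads from -0.78 to 3.10; Gapdh moves close to 0 in gastrocnemius without quantile normalization (-0.07).

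Of the transporters, limma called 0 of 4 in either muscle. At an unadjusted p under 0.05 there was 1 in gastrocnemius (Slc2a4) and 1 in TA (Slc2a1). SAM, another of the tests run, called 0 in gastrocnemius and 1 in TA (Slc2a1). Slc2a4 encodes the glucose transporter that insulin and contraction bring to the surface of muscle fibres. Its ratios were 0.32, 0.00, 0.24 and 0.28 in gastrocnemius, with a mean of 0.21 (fold 1.16, SD 0.144, SE 0.0815, n = 4, adjusted p = 0.161, limma). In TA they were 0.06, 0.20, 0.06 and 0.06, with a mean of 0.09 (fold 1.07, SD 0.0705, SE 0.0682, n = 4, adjusted p = 0.4, limma). Pair 2 was thus the lowest of the gastrocnemius arrays and the highest of the TA arrays. Slc2a1, the transporter of basal glucose uptake, had a mean of 0.17 in gastrocnemius (adjusted p = 0.295) and 0.41 in TA, where 3 of 4 arrays were positive and the test was missed narrowly (adjusted p = 0.11, limma). Slc16a1 and Slc16a3, which carry lactate across the membrane, had means of 0.05 and -0.16 in gastrocnemius and 0.05 and 0.12 in TA, none past the threshold. Slc16a1 was above background on 2 of 4 WT channels in gastrocnemius, and its mean there was 0.66 with processed signals (adjusted p = 0.251, limma).

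In the hexose phosphate stage, which traps glucose in the cell and prepares it for splitting, 1 of 7 genes rose and 1 fell in each muscle. Hk2, the insulin-responsive hexokinase of muscle, rose in gastrocnemius: its ratios were 0.35, 0.55, 0.18 and 0.24, with a mean of 0.33 (fold 1.26, SD 0.164, SE 0.0853, n = 4, adjusted p = 0.0666, limma). All 4 arrays were positive, but the call was lost without any one of pairs 1 to 4 (adjusted p = 0.114, 0.141, 0.157 and 0.185, limma). In TA the Hk2 ratios were 0.37, 0.50, -0.01 and -0.09, with a mean of 0.19 (SD 0.287, SE 0.107, n = 4, adjusted p = 0.281, limma), so pairs 1 and 2 lay above 0 and pairs 3 and 4 close to it. Gpi1, which interconverts glucose 6-phosphate and fructose 6-phosphate, rose in TA. It gave 0.30, 0.50, 0.16 and 0.23 there, a mean of 0.30 (fold 1.23, SD 0.144, SE 0.0777, n = 4, adjusted p = 0.0593, limma), and missed the threshold without pair 1 or pair 2 (adjusted p = 0.218 and 0.184, limma). In gastrocnemius Gpi1 gave -0.01, 0.33, 0.30 and 0.23, a mean of 0.21 (SD 0.154, SE 0.0833, n = 4, adjusted p = 0.162, limma). The other 2 probes of Gpi1 were positive on average in both muscles, and the second brightest passed in TA with 0.32 (adjusted p = 0.047).

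Phosphofructokinase, the main control point of glycolysis, was measured through its muscle, liver and platelet subunit genes. Pfkm, the subunit of muscle, gave -0.01, -0.25, 0.10 and 0.01 in gastrocnemius, with a mean of -0.04 (SD 0.147, SE 0.0821, n = 4, adjusted p = 0.797, limma). In TA it gave 0.05, -0.02, -0.06 and 0.04, with a mean of 0.00 (SD 0.0529, SE 0.0668, n = 4, adjusted p = 0.978, limma), so on both sides of 0 in each muscle. Pfkl, the liver-type subunit, fell in both muscles. Its gastrocnemius ratios were -0.02, -0.59, -0.91 and -0.59, with a mean of -0.53 (fold 0.694, SD 0.372, SE 0.137, n = 4, adjusted p = 0.0677, limma). Pair 1 lay near 0 and the other 3 pairs well below it; the call was also lost without pair 2 (adjusted p = 0.13). The TA ratios of Pfkl were -0.64, -0.33, -0.28 and -0.31, with a mean of -0.39 (fold 0.764, SD 0.169, SE 0.0819, n = 4, adjusted p = 0.037, limma). All 4 TA pairs were negative, pair 1 the furthest, and without pair 1 or pair 2 the adjusted p was 0.176 and 0.101. With a background offset of 0 the Pfkl means were -0.75 and -0.64, and with Agilent's processed signals -0.84 and -0.77. The Pfkl probe was dim, though above background in both channels of every array. Its mean normalized log2 signal in WT mice was 7.63 in gastrocnemius and 7.21 in TA, where that of Pfkm was 16.4 in both. Hk1, Pfkp and Fbp2, which encode a general hexokinase, the platelet-type subunit and the muscle fructose bisphosphatase, had means of 0.18, -0.10 and -0.34 in gastrocnemius and 0.14, -0.11 and -0.19 in TA, none past the threshold. A second Hk1 probe pointed the other way, with -0.20 in both muscles.

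The triose phosphate stage, which runs from aldolase to pyruvate kinase and yields the ATP of glycolysis, had 1 gene that rose and 4 that fell in gastrocnemius and 1 that rose and 3 that fell in TA, of 10. Aldoa, the aldolase of muscle, was the gene that rose in each. Its ratios were 0.30, 0.89, 0.73 and 0.57 in gastrocnemius, with a mean of 0.62 (fold 1.54, SD 0.252, SE 0.105, n = 4, adjusted p = 0.0334, limma). In TA they were 0.72, 0.59, 0.19 and 0.54, with a mean of 0.51 (fold 1.42, SD 0.226, SE 0.0932, n = 4, adjusted p = 0.0265, limma), and without TA pair 1 the adjusted p was 0.155. All 8 arrays were positive. Aldoa was among the brightest probes, where quantile normalization sets a ceiling: its normalized Eif6+/- signal was 17.63 with an SD of 0 over the 4 gastrocnemius arrays. Loess without quantile normalization gave larger means, 0.92 in gastrocnemius and 0.91 in TA, both past the threshold. Tpi1, which interconverts the triose phosphates, fell in both muscles. Its ratios were -0.56, -0.45, -0.50 and -0.25 in gastrocnemius, with a mean of -0.44 (fold 0.736, SD 0.134, SE 0.0797, n = 4, adjusted p = 0.0357, limma). The TA values were -0.44, -0.20, -0.14 and -0.21, with a mean of -0.25 (fold 0.843, SD 0.136, SE 0.0764, n = 4, adjusted p = 0.0871, limma). All 8 arrays were negative, and the second Tpi1 probe also fell, with -0.52 and -0.38 (adjusted p = 0.0463 and 0.0793). The TA call was lost without any one of the pairs (adjusted p = 0.307, 0.178, 0.12 and 0.121 without pairs 1 to 4) and under loess alone, where the mean was -0.17.

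Gapdh, which oxidizes glyceraldehyde 3-phosphate, gave -0.38, -0.25, -0.38 and -0.38 in gastrocnemius, with a mean of -0.35 (fold 0.787, SD 0.0657, SE 0.0704, n = 4, adjusted p = 0.0438, limma). In TA the Gapdh ratios were -0.37, -0.25, -0.15 and -0.08, with a mean of -0.21 (SD 0.124, SE 0.0746, n = 4, adjusted p = 0.114, limma). All 8 arrays were negative after quantile normalization, but this direction depended on the scaling: loess alone gave -0.07 in gastrocnemius (adjusted p = 0.624) and 0.18 in TA, the deposited ratios -0.04 and 0.21, and Agilent's processed signals -0.21 and 0.07. The 7 Gapdh probes spread from -0.58 to 0.04 in gastrocnemius, where 6 were negative and 5 called lower, and from -0.57 to 0.14 in TA, where 5 were negative and 4 called lower. Genes such as Gapdh, Eno1, Aldoa, Ldha and Pgk1 have near-identical processed copies in the mouse genome, so what each probe binds is uncertain.

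Pgam2, the phosphoglycerate mutase of muscle, gave -0.49, 0.01, 0.02 and -0.05 in gastrocnemius, with a mean of -0.13 (SD 0.244, SE 0.103, n = 4, adjusted p = 0.474, limma). It fell in TA, with -0.23, -0.37, -0.14 and -0.18 and a mean of -0.23 (fold 0.853, SD 0.101, SE 0.0714, n = 4, adjusted p = 0.0879, limma). All 4 TA arrays were negative, but the TA call was lost without any one of pairs 1 to 4 (adjusted p = 0.263, 0.253, 0.13 and 0.117) and under loess alone (-0.14). Eno1, the widely expressed enolase, fell in gastrocnemius: its ratios were -0.07, -0.48, -0.46 and -0.27, with a mean of -0.32 (fold 0.802, SD 0.193, SE 0.0914, n = 4, adjusted p = 0.0855, limma). Without pair 2 the adjusted p was 0.184. In TA, Eno1 gave -0.45, -0.08, 0.15 and -0.08, with a mean of -0.11 (SD 0.248, SE 0.098, n = 4, adjusted p = 0.483, limma), so pair 3 lay on the other side of 0. Pkm, the pyruvate kinase of muscle and the last step of glycolysis, fell in both. Its gastrocnemius ratios were -0.52, -0.48, -0.57 and -0.43, with a mean of -0.50 (fold 0.707, SD 0.0601, SE 0.0699, n = 4, adjusted p = 0.0287, limma), a narrow spread with all 4 arrays negative. In TA, Pkm gave -0.58, -0.36, -0.34 and 0.03, with a mean of -0.31 (fold 0.805, SD 0.252, SE 0.099, n = 4, adjusted p = 0.0909, limma). Pair 4 showed no decrease, and the call was lost without pair 1, 2 or 3 (adjusted p = 0.333, 0.214 and 0.178) and under loess alone (-0.30, adjusted p = 0.188). The 4 remaining genes of this stage, Aldoc, Pgk1, Pgam1 and the muscle enolase Eno3, had means between -0.22 and 0.22 in gastrocnemius and between -0.15 and 0.18 in TA, none past the threshold.

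**Figure D2:**
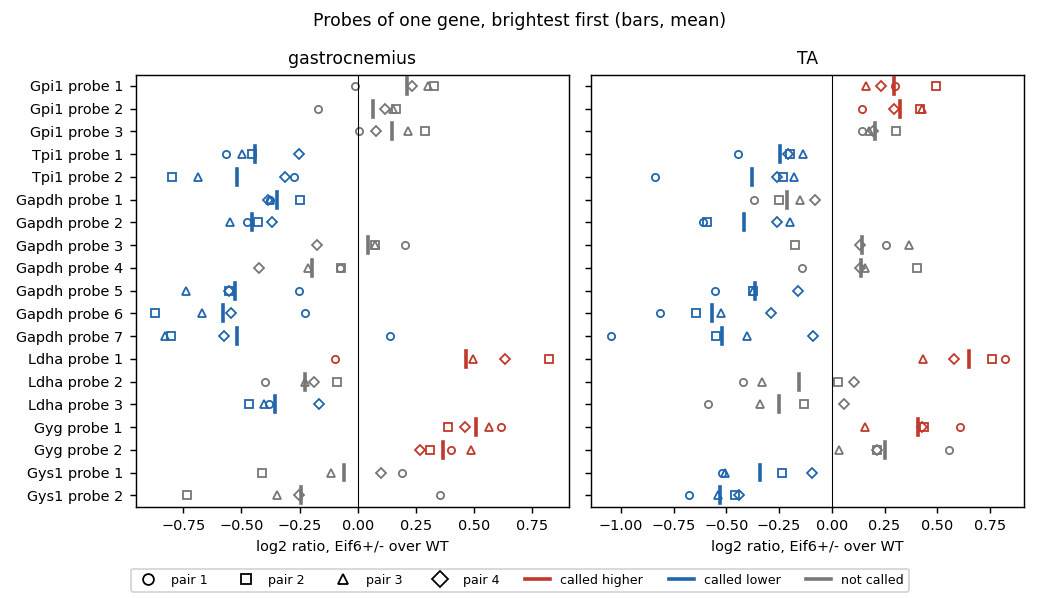
Log2 ratio of Eif6+/- over WT (x axis) for every probe of 6 genes with several probes, brightest probe first (y axis), with 1 symbol per pair and a bar at the mean; colours mark calls by limma at an adjusted p under 0.1. The probes of Tpi1 and Gyg lie on 1 side of 0, those of Gapdh mostly below it, and the brightest Ldha probe lies above 0 while its other 2 probes average below it.

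Ldha, the lactate dehydrogenase subunit that dominates in fast muscle, and Ldhb, the subunit of heart and slow muscle, are the genes of the last step to lactate. The brightest Ldha probe rose in both muscles. Its ratios were -0.10, 0.82, 0.50 and 0.63 in gastrocnemius, with a mean of 0.46 (fold 1.38, SD 0.397, SE 0.144, n = 4, adjusted p = 0.0997, limma), barely under the threshold and lost without pair 2 (adjusted p = 0.214). In TA they were 0.82, 0.76, 0.43 and 0.58, with a mean of 0.65 (fold 1.57, SD 0.175, SE 0.0831, n = 4, adjusted p = 0.0119, limma). All 4 TA pairs were positive, and the TA call held without any single array. The direction of Ldha nevertheless depended on the probe. Its other 2 probes, in order of brightness, gave -0.23 and -0.35 in gastrocnemius (adjusted p = 0.129 and 0.0512, the latter called lower) and -0.15 and -0.25 in TA (adjusted p = 0.35 and 0.166). What sets the probes apart was not tested, and Ldha is given without a direction for the gene as a whole.

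Ldhb fell in TA, with ratios of -0.74, -0.59, -0.38 and -1.73 and a mean of -0.86 (fold 0.551, SD 0.598, SE 0.189, n = 4, adjusted p = 0.0397, limma). All 4 TA pairs were negative, pair 4 the furthest; without pair 1 the adjusted p was 0.183, and without pair 4 the mean was -0.57 (adjusted p = 0.0296). In gastrocnemius Ldhb gave 3.10, -0.78, 0.81 and -0.25, with a mean of 0.72 (SD 1.72, SE 0.554, n = 4, adjusted p = 0.447, limma), so pairs 1 and 3 lay on the opposite side of 0 from pairs 2 and 4. The 7 markers of slow fibres (Myh7, Tnnt1, Tnni1, Tnnc1, Myl2, Myl3 and Atp2a2), were all well above background on all arrays. Their median ratio was 2.71, -1.29, -0.26 and -0.34 on gastrocnemius arrays 1 to 4 and -0.20, -0.68, -0.08 and -1.35 on TA arrays 1 to 4. By limma, 0 of 7 were called in gastrocnemius (0 at an unadjusted p under 0.05 and 0 by SAM), and 3 (Tnnt1, Tnni1 and Tnnc1) fell in TA. Gastrocnemius pair 1 and TA pair 4 were thus the extremes for both Ldhb and the median of the slow-fibre markers. On gastrocnemius pair 3 Ldhb was 0.81 where that median was -0.26. The part of fibre content in the Ldhb values was not tested. Gpd1 and Gpd2 encode the cytosolic and mitochondrial glycerol phosphate dehydrogenases of the shuttle that carries electrons from glycolysis into mitochondria. Gpd1 had a mean of 0.08 in gastrocnemius (adjusted p = 0.766); in TA its spot on array 1 was marked as an outlier, so it was not tested, and the other 3 arrays gave 0.11, 0.23 and 0.32. Gpd2 had means of -0.15 and -0.02, neither past the threshold.

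**Figure D3:**
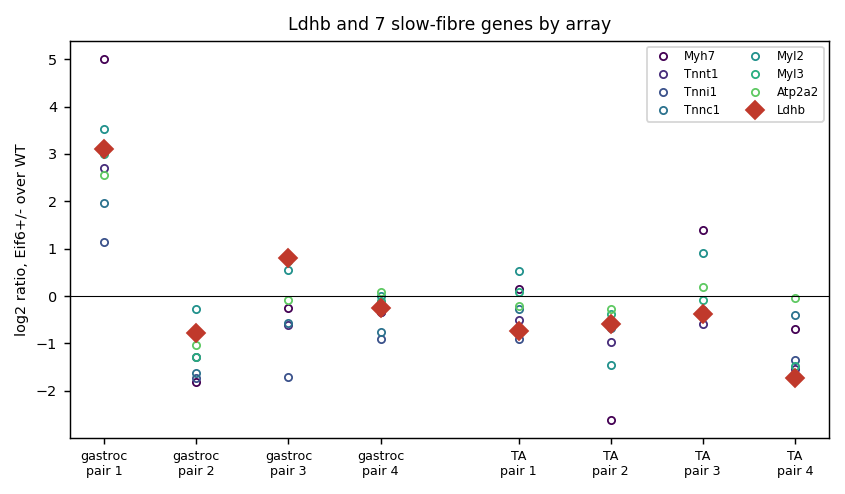
Log2 ratio of Eif6+/- over WT (y axis) of Ldhb (red diamonds) and of 7 slow-fibre genes (circles) on each of the 8 arrays (x axis). In gastrocnemius pair 1 Ldhb (3.10) lies among slow-fibre genes with a median of 2.71. In TA pair 4 Ldhb (-1.73) lies just below the lowest of them (Myl2, -1.70), where their median is -1.35. In gastrocnemius pair 3 Ldhb is positive (0.81) and their median negative (-0.26).

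Glycogen synthesis had 2 genes that rose and 1 that fell in gastrocnemius, and 2 that rose and 2 that fell in TA, of 7 tested in each. Gyg, glycogenin, the protein primer on which a glycogen particle is built, rose in both muscles. It gave 0.62, 0.39, 0.56 and 0.46 in gastrocnemius, with a mean of 0.51 (fold 1.42, SD 0.101, SE 0.0746, n = 4, adjusted p = 0.0287, limma). In TA it gave 0.61, 0.43, 0.16 and 0.43, with a mean of 0.41 (fold 1.33, SD 0.187, SE 0.0853, n = 4, adjusted p = 0.0365, limma). All 8 arrays were positive; without TA pair 1 or 2 the adjusted p was 0.184 and 0.111. The second Gyg probe gave 0.37 (adjusted p = 0.0432) and 0.25 (adjusted p = 0.121). Gys1, the glycogen synthase of muscle, gave 0.19, -0.41, -0.11 and 0.10 in gastrocnemius, with a mean of -0.06 (SD 0.269, SE 0.109, n = 4, adjusted p = 0.772, limma). It fell in TA, with -0.52, -0.24, -0.51 and -0.09 and a mean of -0.34 (fold 0.79, SD 0.209, SE 0.0898, n = 4, adjusted p = 0.0601, limma). All 4 TA arrays were negative, and the second Gys1 probe fell further there (-0.53, adjusted p = 0.0132); without TA pair 1, 2 or 3 the adjusted p of the first probe was 0.253, 0.126 and 0.151.

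The 4 genes that follow were taken up in full after their values were seen. Gbe1, the branching enzyme of glycogen, rose in gastrocnemius. Its ratios were 1.02, 0.95, 0.70 and 0.62 on arrays 1 to 4, with a mean of 0.82 (fold 1.77, SD 0.192, SE 0.0911, n = 4, adjusted p = 0.0269, limma). In TA, Gbe1 gave 0.08, 0.57, 0.02 and -0.31, with a mean of 0.09 (SD 0.362, SE 0.125, n = 4, adjusted p = 0.673, limma), spread around 0. Ppp1r3a, which tethers protein phosphatase 1 to glycogen in muscle, fell in gastrocnemius. Its ratios were -0.30, -0.64, -0.50 and -0.32 there, with a mean of -0.44 (fold 0.738, SD 0.161, SE 0.0848, n = 4, adjusted p = 0.0403, limma), and -0.03, -0.25, -0.12 and 0.10 in TA, with a mean of -0.07 (adjusted p = 0.566). Pgm1, the main phosphoglucomutase, rose in TA, with 0.53, 0.40, 0.23 and 0.44 and a mean of 0.40 (fold 1.32, SD 0.126, SE 0.0749, n = 4, adjusted p = 0.028, limma). Without pair 1 the adjusted p was 0.157, and in gastrocnemius Pgm1 gave -0.40, 0.62, 0.34 and 0.18, a mean of 0.18 (adjusted p = 0.483). Ugp2, which makes the UDP-glucose that glycogen synthase uses, fell in TA, with -0.31, -0.22, -0.32 and -0.31 and a mean of -0.29 (fold 0.818, SD 0.0466, SE 0.0664, n = 4, adjusted p = 0.0431, limma). All 4 TA arrays lay close together, but the second Ugp2 probe did not pass (-0.14, adjusted p = 0.328), and without pair 1, 2 or 3 the adjusted p of the first was 0.189, 0.109 and 0.104. In gastrocnemius Ugp2 gave 0.41, -0.19, 0.16 and -0.17, a mean of 0.05 (adjusted p = 0.804). Of the others, Ppp1r3c had means of -0.01 and 0.01. Pgm2 was not well above background and was not tested: in gastrocnemius it was above background on 2 of 4 WT channels and 0 of 4 Eif6+/- channels, and in TA on 0 and 2.

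In glycogen breakdown 1 of 4 genes fell in gastrocnemius and 0 rose or fell in TA. Pygm, the glycogen phosphorylase of muscle, fell in gastrocnemius: its ratios were -0.29, -0.72, -0.37 and -0.35, with a mean of -0.43 (fold 0.741, SD 0.192, SE 0.0912, n = 4, adjusted p = 0.0469, limma). All 4 arrays were negative, pair 2 the furthest. Under loess alone, with the deposited ratios and with processed signals the means were -0.43, -0.41 and -0.47 but missed the threshold (adjusted p = 0.125, 0.131 and 0.112). In TA, Pygm gave -0.35, -0.23, -0.14 and 0.41, with a mean of -0.08 (SD 0.337, SE 0.119, n = 4, adjusted p = 0.712, limma), so pair 4 lay opposite to the other 3. Phka1, Phkb and Phkg1, subunits of the phosphorylase kinase that activates Pygm, had means of 0.00, -0.04 and -0.13 in gastrocnemius and 0.24, 0.14 and -0.02 in TA. None of these passed limma's test, and at an unadjusted p under 0.05 there was again 0 in TA; SAM also called 0 there.

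The promoters of 4 glycogen genes are shown because the gastrocnemius results on glycogen rest on them: Gyg and Gbe1 rose and Pygm and Ppp1r3a fell. They and the window were chosen after the values were seen. Each run is the 250 bases before the start of transcription in RefSeq, mouse build GRCm38.p6, written 5′ to 3′ on the strand of the gene, with matches on either strand in capitals to ACGTG or the related GCGTG, which hold the core of the hypoxia response element, to the E-box CACGTG, which contains the first of these, or to the TATA box, TATAAA. They lie at chr3:20155117-20155366 (reverse strand, Gyg), chr16:70313699-70313948 (forward strand, Gbe1), chr19:6384158-6384407 (forward strand, Pygm) and chr6:14755275-14755524 (reverse strand, Ppp1r3a).
Gyg promoter: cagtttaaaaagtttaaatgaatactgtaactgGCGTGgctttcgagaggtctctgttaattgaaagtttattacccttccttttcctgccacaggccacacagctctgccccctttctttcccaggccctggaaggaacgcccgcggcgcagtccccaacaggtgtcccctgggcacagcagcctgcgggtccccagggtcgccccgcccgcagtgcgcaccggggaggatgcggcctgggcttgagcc
Gbe1 promoter: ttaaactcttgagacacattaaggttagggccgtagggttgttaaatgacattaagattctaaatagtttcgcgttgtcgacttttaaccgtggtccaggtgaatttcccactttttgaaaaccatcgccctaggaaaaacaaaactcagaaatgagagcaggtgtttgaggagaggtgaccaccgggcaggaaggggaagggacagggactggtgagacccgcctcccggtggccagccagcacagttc
Pygm promoter: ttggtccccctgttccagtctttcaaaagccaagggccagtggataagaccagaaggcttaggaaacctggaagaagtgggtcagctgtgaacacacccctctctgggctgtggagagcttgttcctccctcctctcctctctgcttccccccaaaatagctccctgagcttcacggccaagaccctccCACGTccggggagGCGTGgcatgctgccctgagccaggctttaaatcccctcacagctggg
Ppp1r3a promoter: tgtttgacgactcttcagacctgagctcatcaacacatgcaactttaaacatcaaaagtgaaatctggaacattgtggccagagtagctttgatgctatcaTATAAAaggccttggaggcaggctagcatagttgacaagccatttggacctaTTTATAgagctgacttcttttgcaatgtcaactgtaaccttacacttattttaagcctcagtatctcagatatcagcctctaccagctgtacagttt
The Gyg promoter holds 1 GCGTG and that of Gbe1 none of the 4 motifs. The Pygm promoter holds 1 ACGTG on the other strand and 1 GCGTG. That of Ppp1r3a holds 2 matches to TATAAA, which begin 149 and 97 bases before the start, the second on the other strand. RefSeq promoters were found for 35 of the 37 genes, 48 promoters in all; Gpd1 and Slc2a4 had no entry. ACGTG stood in 19 of the 48 promoters (39.6%) and in 16.6% of all 32841 mouse promoters of the same length. GCGTG stood in 23 (47.9%, against 28.2%), CACGTG in 5 (10.4%, against 6.02%) and TATAAA in 2 (4.17%, against 12.4%). A match is a description of the letters and not a site of binding, and these shares were not tested.

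The response to genotype was not shown to differ between the muscles for any of the 35 genes tested in both. The difference, gastrocnemius minus TA, was called for 0 of 35 by limma, as for 0% of 12200 genes; 5 of 35 and 995 of 12200 had an unadjusted p under 0.05, and the lowest adjusted p of the members was 0.636. With the pair number as a replicate block the count was also 0. Gbe1 had a difference of 0.73 (SE 0.172, unadjusted p = 0.00146, adjusted p = 0.636, limma). For Ppp1r3a it was -0.36 (SE 0.114, adjusted p = 0.636) and for Ldhb 1.58 (SE 0.684, adjusted p = 0.638). So Gbe1, called in gastrocnemius alone, and the other genes called in a single muscle cannot be read as effects of that muscle. Of the 35 genes 6 passed in both muscles with the same sign, or 17.1%, against 6.35% of the 12200 genes, a comparison without a test: Aldoa, Gyg and the brightest probe of Ldha, whose other 2 probes had negative means, were higher, and Pfkl, Tpi1 and Pkm lower. The TA calls of Tpi1 and Pkm were lost under loess alone, and the Pfkl probe was dim in both muscles. Both muscles were read with the same probes and the same dye for each genotype, so a dye effect of a probe would recur in both.

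**Figure D4:**
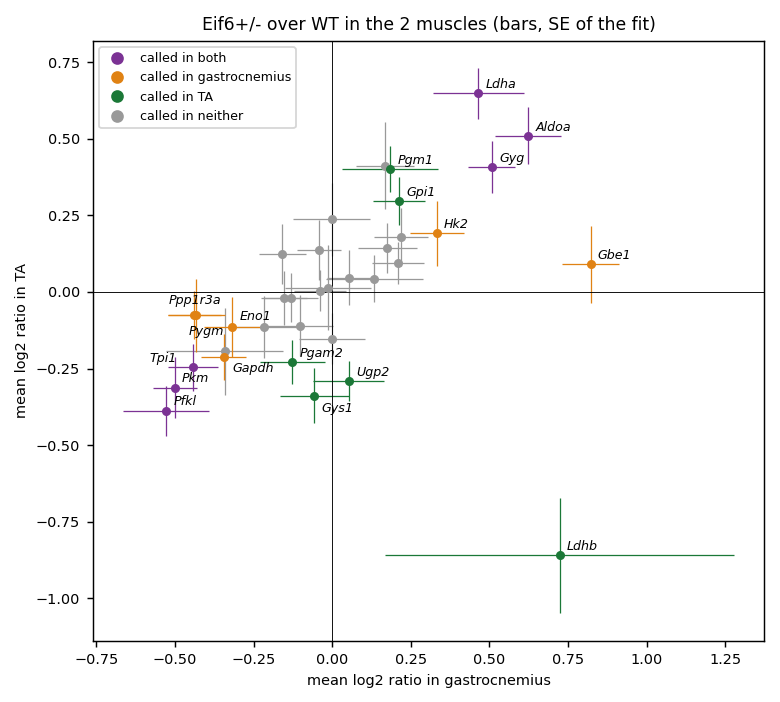
Mean log2 ratio of Eif6+/- over WT in gastrocnemius (x axis) and TA (y axis) for the 35 genes tested in both muscles, with bars of 1 standard error from limma; colours show in which muscle a gene was called, and called genes are named. Aldoa, Ldha and Gyg lie in the upper right and Pfkl, Pkm and Tpi1 in the lower left, Ldhb (0.72 and -0.86) in the lower right with long bars, and Gbe1 far right near 0 on the TA axis; the direction of Gapdh in TA and of Ldha changes with the scaling or the probe.

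Levels of the same probe could also be set between the muscles within a genotype, where the dye is the same on both sides. In WT mice 3 of 35 genes were higher in gastrocnemius than in TA (Pfkl 0.42, Pkm 0.33 and Pygm 0.48), against 7.9% of 12200 genes, and 2 were lower (Gbe1 -1.26 and Ugp2 -0.37), against 13.2%. In Eif6+/- mice 4 were higher in gastrocnemius (Aldoc 0.26, Pfkl 0.28, Pgk1 0.41 and Ldhb 1.43), against 6.67%, and 3 were lower (Gbe1 -0.53, Ppp1r3a -0.39 and Slc2a1 -0.40), against 10.2%. Fibre markers differed between the muscles as well: of the 7 slow-fibre genes 6 were higher in gastrocnemius of WT mice and 7 in Eif6+/- mice (Myh7 4.02 and 5.12, Myl2 4.59 and 5.97, Tnnc1 2.12 and 2.30), and the IIA myosin Myh2 was higher in Eif6+/- mice (1.99). Other cell genes differed too. In WT mice the fat cell genes Cfd, Adipoq, Cidec, Pck1 and Plin1 were higher in gastrocnemius (3.33, 2.87, 2.38, 1.93 and 1.67). Fabp4 was not called there. Of these, Cfd, Adipoq and Cidec were higher in Eif6+/- mice (1.99, 1.57 and 1.54) and Fabp4 lower (-0.28). Of fibroblast genes Col1a2, Col1a1 and Dcn were higher in WT mice (1.54, 1.35 and 1.06) and Dcn in Eif6+/- mice (0.88). The muscle marker Mb was lower in WT mice (-1.35). In Eif6+/- mice the red cell genes Hbb-bs and Hbb-bt (0.69 and 0.46) and the leukocyte gene Lyz2 (0.40) were higher in gastrocnemius. Hba-a1, Alas2 and Cd74 were not called there, and none of these red cell and leukocyte genes was called in WT mice. The part of fibre and cell content in these values was not tested. The sizes moved with the processing: with Agilent's processed signals Pkm and Pygm were 0.02 and 0.19 in WT mice and Pgk1 0.05 in Eif6+/- mice. Over the 6 alternatives Pfkl ranged from 0.29 to 0.63 in WT mice and from 0.23 to 0.54 in Eif6+/- mice, Ugp2 from -0.60 to -0.25 in WT mice and Ppp1r3a from -0.59 to -0.30 in Eif6+/- mice. Pfkl, Pkm and Pygm were each lost in WT mice under 5 of the 6 alternatives. The counts also rest on few arrays: without pair 1, 2, 3 or 4 the WT genes higher in gastrocnemius numbered 5, 0, 0 and 0 and the Eif6+/- genes lower there 0, 1, 5 and 1. Likewise the WT genes lower in gastrocnemius numbered 1 without pair 1, 2 or 3, and the Eif6+/- genes higher there 0, 1 and 0 without pair 1, 2 and 4. Gbe1 was the exception in WT mice. Its mean normalized log2 signal was 10.8 in gastrocnemius and 12.1 in TA of WT mice (SD 0.278 and 0.232, n = 4 each), and all 4 gastrocnemius values lay below all 4 TA values. The WT difference of -1.26 (SE 0.153, adjusted p = 0.00281, limma) passed under all 6 alternatives tried for it, with values from -1.46 to -1.23. In Eif6+/- mice the signal was 11.6 and 12.1 (SD 0.173 and 0.164, n = 4 each), and the difference of -0.53 (SE 0.104, adjusted p = 0.019, limma) was lost without pair 1 (adjusted p = 0.108). Of the 7 genes of IIB and IIX fibres, Myh1 was lower in gastrocnemius, with -1.45 in WT mice (adjusted p = 0.0153) and -0.53 in Eif6+/- mice (adjusted p = 0.0447), and the other 6 were not called in either genotype, with values from -0.10 to 0.34 in WT mice. The part of fibre type in the Gbe1 values was not tested.

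**Figure D5:**
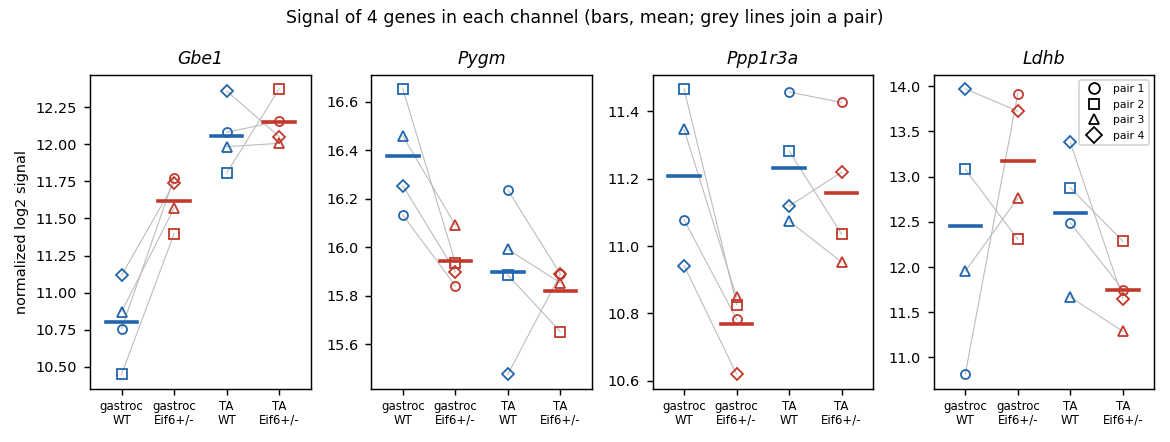
Normalized log2 signal (y axis) of Gbe1, Pygm, Ppp1r3a and Ldhb in each muscle and genotype (x axis), with 1 symbol per mouse, bars at the mean of 4 and grey lines joining the mice of a pair. Every Gbe1 value of WT gastrocnemius lies below every value of Eif6+/- gastrocnemius and of TA, while the Ldhb values of WT gastrocnemius span 10.8 to 13.97.

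Of 61 further genes of glucose uptake, glycolysis, glycogen and their control, 60 were on the array. In gastrocnemius 5 of 49 tested rose (10.2%, against 9.85% of all genes) and 6 fell (12.2%, against 5.53%), and in TA 6 of 46 rose (13%, against 8.98%) and 1 fell (2.17%, against 7.29%); 15 were called in either muscle. Ppp1r3b, another subunit that brings protein phosphatase 1 to glycogen, rose in both muscles, with means of 0.42 (adjusted p = 0.0591) and 0.51 (adjusted p = 0.0132, limma). Nhlrc1, the ubiquitin ligase malin that acts on glycogen-bound proteins, also rose in both, with 0.45 (adjusted p = 0.0311) and 0.28 (adjusted p = 0.0535); its next brightest probe gave 0.01 and 0.11, which did not pass. Both genes were higher in the Eif6+/- mouse on all 8 arrays. Bsg, the partner that carries lactate transporters to the membrane, fell in both, with -0.62 (adjusted p = 0.0978) and -0.43 (adjusted p = 0.0528). Mdh1, the cytosolic malate dehydrogenase, rose in gastrocnemius (0.93, adjusted p = 0.0287) and had 0.41 in TA (adjusted p = 0.131). Gys2, the liver type of glycogen synthase, was above background in gastrocnemius on 4 Eif6+/- and 2 WT channels and rose there (adjusted p = 0.049); its mean was 0.47 but depended on the background correction, with 1.22 at an offset of 0 and 1.85 with processed signals. The genes Prkag3, Prkaa2 and Ppp1ca fell in gastrocnemius, with -0.53, -0.35 and -0.31 (adjusted p = 0.0513, 0.0614 and 0.051). The first pair encode subunits of AMP-activated protein kinase, the cell's energy sensor, and Ppp1ca a catalytic subunit of protein phosphatase 1. In TA, Pfkfb3 and Pfkfb4, which make the activator of phosphofructokinase, rose with 0.70 and 0.35 (adjusted p = 0.045 and 0.0587), and Calm3, a calmodulin gene, with 0.34 (adjusted p = 0.0516). The next brightest probe of Pfkfb3 gave 0.05 in TA and did not pass. Tbc1d1, a regulator of glucose transporter traffic, rose in gastrocnemius by its brightest probe (0.79, adjusted p = 0.0287), but its next probe gave -0.01 there and fell in TA (-0.32, adjusted p = 0.0806), so its direction is uncertain. Hk3 (-0.33) and Prkab2 (-0.38), named after their values were seen, also fell in gastrocnemius. Hk3 was above background on 2 Eif6+/- and 3 WT channels there, and its mean was -0.76 at an offset of 0 and -0.82 with processed signals. With an offset of 0 and with processed signals alike, Bsg in both muscles, Ppp1ca, Prkaa2 and Prkab2 in gastrocnemius and Pfkfb4 and Calm3 in TA missed the threshold, as did Hk3 in gastrocnemius and Pfkfb3 and Nhlrc1 in TA with processed signals. Every one of these gastrocnemius calls was lost without pair 3 or pair 4, and of the TA calls all were lost without pair 1.

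Markers of fibre types and other cells moved as well, and are given beside the glycolytic genes because these enzymes are most abundant in fast fibres. Of 7 genes of IIB and IIX fibres, Myh1 rose and Actn3 and Atp2a1 fell in gastrocnemius, while Myh4 rose and Atp2a1 fell in TA. Myh2, the IIA myosin, gave 3.92, 0.52, 1.41 and 0.62 in gastrocnemius, all positive and past SAM's threshold but not limma's (adjusted p = 0.104). Of the 8 muscle markers, Ckm and Des fell in gastrocnemius, and in TA Tnnc2 rose and Des and Mb fell. Of fat cell genes, 3 of 6 tested fell in gastrocnemius (median ratio -0.48) and 2 of 6 rose in TA (median 0.47). Red cell genes fell in TA, 4 of 4 (median -0.69), and 0 of 4 in gastrocnemius by limma (3 lower at an unadjusted p under 0.05 and 3 by SAM). Of leukocyte genes Cd74 fell in gastrocnemius, 1 of 2 tested, and S100a9 in TA, 1 of 4. Of 4 fibroblast genes 0 passed limma's test in either muscle (1 lower in gastrocnemius and 0 in TA at an unadjusted p under 0.05, as by SAM), though their median was -1.45 on gastrocnemius array 3 and 2.01 on TA array 3. Pecam1 of 3 endothelial genes fell in TA, as did the myelin genes Mbp and Prx. In gastrocnemius limma called 0 of the 3 endothelial genes (1 lower at an unadjusted p under 0.05, as by SAM). The part of fibre type and cell content in the ratios of the glycolytic and glycogen genes was not tested. The precision of all values is limited by the number of arrays, and the p-values measure the spread among these pairs alone.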

How the data were processed

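Gastrocnemius and TA RNA had been hybridised to 8 two-colour Agilent arrays, 4 per muscle, with 1 Eif6+/- mouse in Cy5 and 1 WT mouse in Cy3 on each. The deposited scanner files hold spot and background intensities in each channel without normalization, and processed intensities, from which the scanner software had subtracted background and balanced the dyes. They also hold a log10 ratio of the processed channels, per the file headers, which served to check the direction. A further table deposited by the authors holds log2 ratios that matched loess-normalized, uncorrected intensities on every array (r of at least 0.999939) and showed no quantile normalization. Its medians were 0.00257, 0.000831, -0.00441 and 0.00375 in gastrocnemius pairs 1 to 4 and 0.00138, -0.000366, 0.00288 and 0.00212 in TA pairs 1 to 4.

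Median intensities were background-corrected by normexp (offset 50), normalized by loess within arrays and by quantiles across channels, with R 4.3.3 and limma 3.58.1. Replicate spots were averaged. Outlier spots, 233 to 318 per array, were left out; 0 spots were saturated. Between 38.8% and 48.6% of probes lay above background in a channel. Probes bright enough for testing numbered 23802 in gastrocnemius, 23391 in TA and 22765 in both. RefSeq accessions gave names to 27235 of 28685 RefSeq probes among 55681 probes, for 20660 genes (names from assembly GRCm38.p6, whose build differs from that of the array design). A gene is its probe with the highest mean signal over the 16 channels. Pgm2 in both muscles and Gpd1 in TA were not tested.

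The 4 ratios of a muscle were tested against 0 with limma, two-sided, with Benjamini-Hochberg adjustment over all kept probes and a threshold of 0.1. The difference between muscles was fitted over all 8 arrays, and levels were compared between muscles within each genotype. The members of the pathway and the gene lists were chosen with earlier results of these data known. Given in full were, in pathway order, at most 14 genes called in either muscle, and whether called or not Hk2, Pfkm, Pkm, Ldha, Pygm, Gys1, Slc2a4 and Eif6, and of the further pathway genes the 12 called with the lowest p. Gbe1, Pgm1, Ugp2 and Ppp1r3a lay outside these limits and were chosen after their values were seen, as were the promoter window and the 4 promoters printed. Alternatives covered normalization, background, signal, filters, threshold, test (a t-test and SAM, significance analysis of microarrays), probe choice, the pair number as a block, and leaving out each pair. The code was tested on simulated data, and figures were drawn with Python 3.11.15 and matplotlib 3.10.9.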

Additional observations from a re-analysis of the deposited data

Results flagged for a closer look

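On 5 occasions 1 array lay far from the other 3 arrays of its muscle, among 71 groups of 4 ratios looked at; chance gives about 1 such array in 20 groups. The Pfkl ratio of TA pair 1 was -0.64, where the other pairs lay between -0.33 and -0.28. In gastrocnemius the Gapdh ratio of pair 2 was -0.25, where the others were all -0.38. The Pgam2 ratio of gastrocnemius pair 1 was -0.49, against -0.05 to 0.02 in the others. For Ugp2 in TA, pair 2 gave -0.22 and the others -0.32 to -0.31. For Slc2a4 in TA, pair 2 gave 0.20 and the others 0.06. Each of these arrays was kept.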

How the results depend on the processing

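The 24 called values of the pathway's genes kept their sign on the same probe under every alternative run. Of 466 alternative values of these calls, 326 passed with the same sign, 137 missed the threshold with the same sign and 3 turned sign, all of Ldha with another probe or the mean of its probes. The 5 gastrocnemius genes called higher became 3 with a normexp offset of 0, 3 at an adjusted p under 0.05 and 1 with the next brightest probe. The 7 called lower became 4 with Agilent's processed signals and 2 with the next probe. In TA the 5 called higher became 3 with processed signals and 1 with the next probe. The 7 called lower in TA became 4 under loess alone, without background correction or with the deposited ratios, 2 with an offset of 0, 1 with processed signals, 3 at an adjusted p under 0.05, by SAM at 0.05 or with the next probe. The t-test with Benjamini-Hochberg adjustment called 0 in each direction and muscle (unadjusted p under 0.05: 4 higher and 7 lower in gastrocnemius, 5 and 6 in TA), where SAM at 0.1 called 5 and 7 in gastrocnemius and 6 and 8 in TA. The next probe could be tested for 11 genes alone, and their median was -0.20 in gastrocnemius and -0.14 in TA. Leaving out 1 pair gave 0 to 7 higher and 0 to 7 lower in gastrocnemius, and 1 to 6 and 0 to 5 in TA. Between the muscles of WT mice, the 3 higher in gastrocnemius became 0 with processed signals and 1 with the pair number as a block (0 to 5 without 1 pair), and the 2 lower became 6 and 1 (1 to 2). In Eif6+/- mice the 4 higher ranged from 0 to 5 and the 3 lower, 7 with processed signals, from 0 to 5. Ldha turned sign with its next probe in gastrocnemius (-0.23) and TA (-0.15) and with the mean of its probes in gastrocnemius (-0.0384), as did Tbc1d1 with its next probe (-0.00597 in gastrocnemius and -0.32 in TA). After the mean of each muscle was subtracted per probe, the ratios of gastrocnemius and TA arrays with the same pair number correlated across probes by -0.145, 0.0186, -0.356 and 0.0896 for pairs 1 to 4, lower than the best TA array of another number each time (0.135, 0.168, 0.299 and 0.107), so whether a number marks the same mice cannot be told, and probes are not independent replicates. The cause of these changes was not tested, except that the next probe and 3 pairs leave fewer genes or arrays.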
